A study of Homo sapiens with 2 samples.

Results

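SOX9 ChIP-seq signal was examined at 9 genes that encode relatives of SOX9: SOX2, SOX4, SOX7, SOX8, SOX10, SOX11, SOX12, SOX13 and SOX18. The genes were listed by name, as 9 of the 20162 protein-coding genes annotated on hg19. Earlier results of these data were known when the list was made. A SOX9 peak was assigned to a gene when its summit, the position of highest ChIP signal, lay within 1 kb of a transcription start site (TSS) of the gene or within 100 kb of the gene. This gave 30 of the 17847 peaks in the genome. Of these, 3 lay within 1 kb of a TSS of their SOX gene, at SOX4, SOX13 and SOX18, and 27 lay farther away. No summit lay within 100 kb of SOX11 or SOX7.

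The experiment used HT-29 cells, an established human colorectal adenocarcinoma line. The ChIP library was made from DNA recovered with a SOX9 antibody (Millipore, AB5535), and the input library from chromatin that had not been immunoprecipitated. The cells of both libraries were untreated and unmodified, as far as the labels state, and were cross-linked for 15 min in 1% formaldehyde. Each library held 12320108 tags (aligned reads), because the input had been reduced to the depth of the ChIP. There was 1 library per condition, so no difference could be set against variation between experiments, and the intervals given here cover counting error only. The data are DNA fragments, and neither the cell type nor the expression of the SOX genes could be checked from them.

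SOX proteins bind DNA through an HMG box, a domain that contacts the minor groove and bends the helix, and most of them prefer short A/T-rich sequences related to AACAAAG. The family is divided into groups by the similarity of the HMG box: SOX2 belongs to group B1, SOX4, SOX11 and SOX12 to group C, SOX13 to group D, SOX8 and SOX10 to group E together with SOX9, and SOX7 and SOX18 to group F. Members of a group often have overlapping roles and are frequently expressed in the same progenitor cells. In the intestine SOX9 is best known from the stem and progenitor cells of the crypt and from Paneth cells.

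The DNA under the 3 summits within 1 kb of a TSS of their SOX gene is shown first. The search covered 100 bp to either side of a summit, on both strands. The strings were CCAAT (the core of the NF-Y element), the SOX heptamer (NNCAANG with only A or T allowed at each N, which gives 8 strings, AACAAAG among them), TGANTCA (an AP-1 element, which reads alike on both strands) and CCGGAA (an ETS core). Sequences are of hg19, on the strand of the SOX gene, with matches in capitals and a match on the other strand read as its complement (ATTGG for CCAAT).
SOX4, the last 120 bases before the TSS, chr6:21593862-21593981: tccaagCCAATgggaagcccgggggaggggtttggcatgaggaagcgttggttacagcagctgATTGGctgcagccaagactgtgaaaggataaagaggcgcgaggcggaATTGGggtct
SOX13, the 101 bases around the summit in the intron, chr1:204043720-204043820: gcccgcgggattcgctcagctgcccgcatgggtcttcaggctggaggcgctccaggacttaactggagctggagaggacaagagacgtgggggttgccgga
SOX18, the 101 bases around the summit in the first exon, chr20:62680583-62680683: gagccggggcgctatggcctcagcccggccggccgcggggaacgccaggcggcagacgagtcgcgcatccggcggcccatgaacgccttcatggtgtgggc
The SOX4 sequence held 3 copies of CCAAT, and the SOX13 and SOX18 sequences held none of the strings searched. The SOX18 sequence lies in coding DNA, and its last bases encode the start of the HMG box.

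The other sequences shown are from peaks away from the gene starts: the peak near SOX2, which carried the only paired SOX site among the 30 peaks, and the other peaks inside SOX13. Capitals mark SOX heptamers and, in SOX13, the AP-1 string.
SOX2, distal peak, chr3:181446410-181446545: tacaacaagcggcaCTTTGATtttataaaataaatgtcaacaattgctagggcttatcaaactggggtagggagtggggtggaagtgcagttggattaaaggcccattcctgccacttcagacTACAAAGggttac
SOX13, middle intronic peak, chr1:204049684-204049794: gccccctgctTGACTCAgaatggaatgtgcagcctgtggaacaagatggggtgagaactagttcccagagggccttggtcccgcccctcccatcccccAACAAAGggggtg
SOX13, last intronic peak, chr1:204053647-204053747: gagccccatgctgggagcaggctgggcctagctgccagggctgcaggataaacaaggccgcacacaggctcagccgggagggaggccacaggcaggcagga
The last of them held no exact match. A match describes the letters only, and a missing match says nothing of whether a factor was bound.

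A summit lay within 1 kb of a TSS in 44.8% of all protein-coding genes (9035 of 20162). Among the 9 SOX genes it was 3 of 9, which with so few genes is not a result that sets them apart. At least 1 summit lay within 100 kb of 83.5% of protein-coding genes and of 7 of the 9 SOX genes. Peaks within 100 kb numbered 7 at SOX13, 7 at SOX18, 5 at SOX12, 4 at SOX8, 4 at SOX10, 2 at SOX4 and 1 at SOX2. The median over all protein-coding genes was 3, with quartiles of 1 and 5 and a highest number of 25. SOX13 and SOX18 thus lay in the upper part of that range, which 16.3% of genes reached with 7 or more peaks. SOX11 and SOX7 were among the 16.5% of genes with none.

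**Figure D1:**
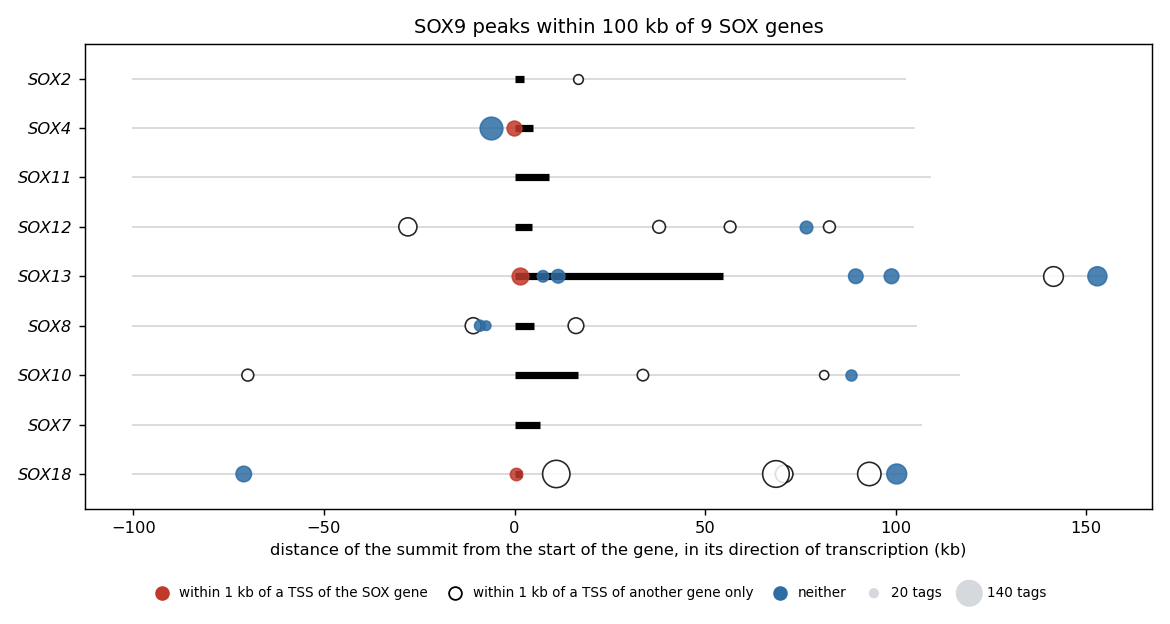
Position of the 30 SOX9 peaks along the loci of the 9 SOX genes. The horizontal axis gives the distance of the summit from the start of the gene in kb, in the direction of transcription, black bars are the genes, grey lines reach 100 kb beyond them, and the area of a circle is proportional to the tags of the peak. Red circles are the 3 peaks within 1 kb of a TSS of the SOX gene, open circles lie within 1 kb of a TSS of another gene only, and blue circles lie at neither; SOX11 and SOX7 have no circle.

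Many of the 30 peaks lay near the starts of other genes. The summit was within 1 kb of a TSS of another gene in 17 of 30 peaks, and 2 of these 17, at SOX13 and SOX18, were also within 1 kb of a TSS of their SOX gene. With protein-coding genes only as the other genes, the number was 14 of 30. Counting the SOX genes themselves, 18 of 30 summits (60.0%) were within 1 kb of some TSS, against 54.0% of all peaks. The other 12 summits lay more than 1 kb from any TSS. The gene density of the loci differed widely. Other protein-coding genes with a start site within 100 kb numbered 11 at SOX18, 7 at SOX12, 6 at SOX10, 4 at SOX13, 3 at SOX7 and 2 at SOX8, and there were none at SOX2, SOX4 and SOX11. Which of the genes near a peak it acts on was not measured.

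The peaks near the SOX genes were of ordinary strength. They held 16 to 143 tags with a median of 40.5, against a median of 45 over all peaks. Their fold enrichment, the peak caller's measure of enrichment over the local input, was 5.16 to 18.42 with a median of 9.57, against 10.39 over all peaks. It is not the ratio of ChIP to input tags over the whole peak, which was lower, at 1.93 to 9. Of the 30, 13 were above the median of all peaks in tags and 10 in fold enrichment. The highest ChIP bin (of 32 nt) of a peak had a median of 18.5 tags and the highest input bin one of 5, against 20 and 5 over all peaks. The highest bins were taken in each library by itself, here and throughout, and need not lie at the same position. Median width was 695 bp, against 793 bp over all peaks.

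**Figure D2:**
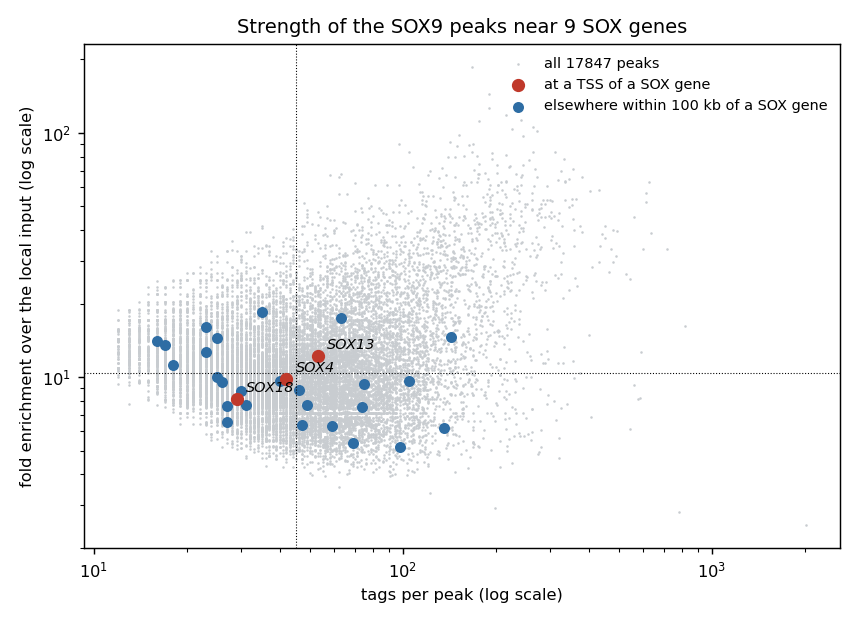
Tags (horizontal axis) and fold enrichment over the local input (vertical axis) of the peaks near the 9 SOX genes, both on log scales. Red points are the peaks at the TSSs of SOX4, SOX13 and SOX18, blue points are the other 27 peaks near SOX genes, grey points are all 17847 peaks, and dotted lines mark the medians of all peaks (45 tags and a fold enrichment of 10.39), around which the coloured points lie on both sides.

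SOX2, of group B1, maintains stem cells of the early embryo and of the nervous system and is one of the factors used to reprogram somatic cells. The gene (ENSG00000181449, chr3:181429713-181432224, plus strand, 1 exon) had no peak at its start. Within 1 kb of the start, there were 17 ChIP tags and 10.6 input tags, a ratio of 1.55 with an exact 95% interval of 0.683 to 3.65. Fractions arise because a tag covers 5 bins, some of which can fall outside the window. Here and below, ratios with an interval were taken from tags rounded to whole numbers, so they can differ from the ratio of the tags printed. The interval includes 1, so no enrichment was detectable there at this depth. The highest ChIP bin held 6 tags and the highest input bin 2.

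The single peak near SOX2 (chr3:181446195-181446725) held 18 tags with a fold enrichment of 11.22, and its summit lay at 16747 bp from the SOX2 start. It ranked low in tags, at percentile 5.52 of all peaks, but above the median in fold enrichment. In this peak the highest ChIP bin held 11 tags and the highest input bin 2. The summit was 954 bp downstream of a TSS of SOX2-OT, the long noncoding RNA gene that spans SOX2, and lay inside that gene. The window was A/T-rich compared with the other loci, with 40.8% G+C within 100 bp of the summit against a median of 65.7% for the 30 peaks and 59.2% for all peaks.

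It also held 2 SOX heptamers, ATCAAAG with its centre at -33 bp from the summit, and TACAAAG at 76 bp. The first of them was part of the paired site aacaagcggcactttgat, in which a heptamer with 2 mismatches faces an exact copy across a spacer of 4 bp, an arrangement known from targets that SOX9 binds as a dimer in cartilage. Such pairs, with up to 2 mismatches in 1 of the copies, were found in 3.57% of all peaks and in 1 of the 30 near SOX genes.

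SOX4 belongs to group C, is active in many progenitor cells and is often highly expressed in carcinomas. Of the peaks at the 3 SOX gene starts, the peak at SOX4 (ENSG00000124766, chr6:21593982-21598850, plus strand, 1 exon) was the only one with no other gene's TSS within 1 kb. It spanned chr6:21593580-21594269 and held 42 tags, a fold enrichment of 9.86 and a score of 94.14 (the score is the -log10 p of the peak caller times 10). The summit lay at -77 bp from the TSS, negative distances being upstream. With peaks limited to scores of at least 100, this peak was lost. The highest ChIP bin at the start of SOX4 held 29 tags, the most at the start of any of the 9 genes, and the highest input bin there held 7.

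Within 1 kb of the SOX4 start there were 74.0 ChIP tags and 26.8 input tags, a ratio of 2.74 (95% interval 1.74 to 4.43). By ChIP tags this start was at percentile 80.6 of protein-coding genes. Protein-coding genes with a peak at the start had a median of 67.8 ChIP tags and 24.6 input tags, and the median ratio was 2.68. SOX4 was thus a usual example of a gene with a SOX9 peak at its promoter.

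The 3 CCAAT copies in the SOX4 promoter, shown above, occupied positions -114 to -110, -57 to -53 and -10 to -6 from the TSS. Their centres were at -35, 22 and 69 bp from the summit, so that the summit fell between the first and the others. CCAAT was present in 26.4% of all peaks, and 3 or more copies in 2.78%. Among peaks within 1 kb of any TSS, 4.46% had 3 or more copies. No SOX heptamer, AP-1 string or ETS core was found in the same window. The 3 copies were picked out after the values had been seen.

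A second peak lay upstream of SOX4 (chr6:21587011-21589169), with its summit at -6091 bp from the TSS. It was the widest of the 30 peaks at 2159 bp and held 98 tags, more than the promoter peak, but its fold enrichment of 5.16 was the lowest of the 30. Its signal was spread out, with 13 tags in the highest ChIP bin and 7 in the highest input bin, which lay elsewhere in the peak. None of the strings searched was found around its summit. The summit lay in a long noncoding RNA gene (ENSG00000283480) whose nearest TSS was 7933 bp away.

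The ChIP signal upstream of SOX4 reached beyond this peak only on the side towards the TSS. The peak itself took up nearly all of the region from -7 to -5 kb and ended between -5 and -4 kb. From -7 to -6 kb there were 47.8 ChIP tags and 19.4 input tags, from -6 to -5 kb 46.6 ChIP tags and 16 input tags, and from -5 to -4 kb 35.6 ChIP tags and 13 input tags. Between -4 and -3 kb the ChIP, at 5.60 tags, was below the input, at 11.2. A bin of 17 ChIP tags and 3 input tags at -4334 bp belonged to no called peak. Downstream of the TSS there were 40.6 ChIP tags and 13.6 input tags in the first kb, 27.6 ChIP tags and 8.60 input tags in the next, and 19.8 ChIP tags and 11.6 input tags from 2 to 3 kb. From 3 to 4 kb there were 22.6 ChIP tags and 8 input tags, and from 4 to 5 kb, the end of the single exon, 14.4 ChIP tags were below 16.6 input tags.

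SOX11 and SOX12, the other genes of group C, had no peak at the start. SOX11, which acts in developing neurons (ENSG00000176887, chr2:5832516-5841517, plus strand), had 4.60 ChIP tags and 2 input tags within 1 kb of its start. The ratio of 2.5 had an interval of 0.409 to 26.3, which leaves the direction undetermined. The nearest summit was 855611 bp from the gene. The SOX11 locus had 2.26 tags per kb in the ChIP and 2.58 in the input.

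SOX12, which is expressed beside SOX4 and SOX11 in many developing tissues (ENSG00000177732, chr20:306196-310868, plus strand, 1 exon), had more signal than SOX11 with no called peak. Within 1 kb of its start there were 48.4 ChIP tags and 23.6 input tags, a ratio of 2 (1.20 to 3.41), and the highest ChIP bin held 15 tags and the highest input bin 6. Genes without a peak at the start had a median ratio of 1.24, with quartiles of 0.781 and 1.74, among those with 5 or more input tags. By its ratio SOX12 thus lay above the upper quartile of the genes without a peak. Its interval excluded 1 but included their median of 1.24. No peak was called there. The signal at the start of SOX12 should not be read as absent, nor as set apart from other starts without a peak.

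Of the 5 peaks near SOX12, 4 were within 1 kb of a TSS of another protein-coding gene. The peak with the most tags (chr20:277707-278584, 63 tags, fold enrichment 17.46) lay at -27968 bp from SOX12 and 17 bp from the TSS of ZCCHC3, and its highest ChIP bin held 23 tags and its highest input bin 3. The other 4 had 26 to 31 tags and lay between SOX12 and RBCK1, at TRIB3 and RBCK1. Of these, 2 had an AP-1 string, TGACTCA at -65 bp from the summit in TRIB3 and TGATTCA at -51 bp from the summit upstream of RBCK1. No SOX heptamer was found in any of the 5.

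SOX13, of group D, has been linked to T cell development and to Wnt signalling, where it can bind TCF factors. It is the longest of the 9 genes (ENSG00000143842, chr1:204042243-204096871, plus strand, 54629 bp, 9 TSSs), and it was the only one with peaks in introns. The peak at a TSS (chr1:204043016-204044234) held 53 tags with a fold enrichment of 12.16 and a score of 183.71. Its summit lay at 616 bp from a TSS inside the gene (204043154) and at 1527 bp from the start of the gene, so that it was lost when the distance was limited to 500 bp. The highest ChIP bin held 17 tags and the highest input bin 3.

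Within 1 kb of the outer start of SOX13 there were 48.8 ChIP tags and 23.8 input tags, a ratio of 2.04 (1.23 to 3.48). Over the 9 TSSs of the gene the windows held 4 to 82.8 tags in the ChIP and 6.6 to 26.8 in the input. The signal thus differed strongly between start sites of the same gene. A long noncoding RNA gene (ENSG00000286572) starts nearby, and the summit was at -677 bp from its TSS, so the peak cannot be given to SOX13 alone.

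The middle intronic peak of SOX13 (chr1:204049458-204050052) held 25 tags with a fold enrichment of 14.46, and its highest ChIP bin held 17 tags and its highest input bin 4. Its window had an AP-1 string, TGACTCA at -32 bp from the summit, and a SOX heptamer, AACAAAG at 56 bp, both shown above. It was the only one of the 30 peaks with both strings. The last intronic peak (chr1:204053335-204053920) had the highest fold enrichment of the 30 peaks, 18.42, with 35 tags in all and 23 tags in the highest ChIP bin and 5 in the highest input bin. It held none of the strings searched.

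The other 4 peaks near SOX13 lay beyond its end. The one with the most tags (chr1:204182649-204183890, 74 tags, fold enrichment 7.52) was at -425 bp from a TSS of GOLT1A. It had the SOX heptamer ATCAATG at 51 bp from its summit. The peak with 69 tags was the farthest, in PLEKHA6.

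SOX8 and SOX10 are the closest relatives of SOX9, and neither had a peak at its start. SOX8 acts with SOX9 in Sertoli cells of the testis (ENSG00000005513, chr16:1031770-1036979, plus strand). Its start had 19.4 ChIP tags and 6 input tags, a ratio of 3.17 (1.22 to 9.69) with a wide interval that excluded 1. The interval included 1.24, the median ratio given above for starts without a peak. The highest ChIP bin held 6 tags and the highest input bin 2. The ratio was nominally the highest of the 9, and its interval overlapped those of all the other genes.

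All 4 peaks near SOX8 were outside the gene, and 3 of them lay upstream, at and near the start of LMF1, with summits at -10826, -9050 and -7429 bp from the start of SOX8. The peak with the most tags (chr16:1020409-1021562, 49 tags, fold enrichment 7.69) was 16 bp from a TSS of LMF1, which encodes a lipase maturation factor. The heptamer AACAATG had its centre at 16 bp from its summit. The others held 17 to 47 tags with fold enrichments of 6.39 to 16.07. One of them, at 11 bp from the TSS of a long noncoding RNA gene (ENSG00000260496), had TTCAAAG at -82 bp.

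SOX10 directs the neural crest, melanocytes and myelinating glia (ENSG00000100146, chr22:38366693-38383429, minus strand, 9 TSSs). Its outer start had 8.60 ChIP tags and 4.2 input tags, a ratio of 2.25 (0.628 to 10.0) that included 1. Over its 9 TSSs the ChIP had 1.00 to 8.60 tags and the input 3 to 9. The 4 peaks near it were all low in tags, with 16 to 27, and all of them were outside the gene. Their fold enrichments were 6.55 to 14.09, on both sides of the median of 10.39 over all peaks. The strongest by tags (chr22:38453133-38453764, 27 tags, fold enrichment 6.55) was at -7 bp from a TSS of PICK1 and had CCAAT at -43 bp and CCGGAA at 5.5 bp. Of the 4 peaks, 3 were within 1 kb of a TSS of another gene.

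SOX7 and SOX18, of group F, are both known from endothelial cells, and SOX18 in particular from lymphatic vessels. SOX7 (ENSG00000171056, chr8:10581278-10588021, minus strand) had 2.20 ChIP tags and 3 input tags at its start, the only ratio below 1 (0.667, 0.0557 to 5.82). However, the highest ChIP bin held 2 tags and the highest input bin 1, a ratio of 2, so no direction can be given. The nearest summit was 389393 bp away. Its locus also had the fewest input tags of the 9, which limits what could be seen there.

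SOX18 (ENSG00000203883, chr20:62678935-62680992, minus strand, 2 exons) had its peak inside the gene (chr20:62680522-62681021). The peak held 29 tags with a fold enrichment of 8.16 and a score of 100.01, and its highest ChIP bin held 16 tags and its highest input bin 5. The summit lay 359 bp downstream of the TSS, in the coding part of the first exon. TCEA2, a gene for a transcription elongation factor, starts nearby on the other strand, and the summit was at -556 bp from a TSS of it. The peak therefore lay near the starts of both genes.

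Within 1 kb of the SOX18 start there were 38.8 ChIP tags and 14.2 input tags, a ratio of 2.79 (1.48 to 5.55), close to that of SOX4. The 3 peaks with the most tags of the 30 were in the SOX18 locus. The peak with the most tags (chr20:62669039-62670746, 143 tags, fold enrichment 14.61) lay at 10958 bp from the SOX18 start and 541 bp from a TSS of C20orf204, and its highest ChIP bin held 49 tags and its highest input bin 7. It was at percentile 95.5 of all peaks by tags. Of the 7 peaks, 5 were within 1 kb of a TSS of another gene, and their fold enrichments were 6.20 to 14.61. No heptamer and no CCAAT was found around any of the 7 summits.

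Ordered by ChIP tags at the outer start, the genes ran from SOX4 over SOX13, SOX12, SOX18, SOX8, SOX2, SOX10 and SOX11 to SOX7. This order depends on the start used. The summit of the SOX13 peak lay 1527 bp from its outer start, outside the window. Over the 9 TSSs of SOX13 the windows reached 82.8 ChIP tags, above the 74.0 at SOX4. The ratios that follow are those of the outer starts. The intervals of the ratios overlapped between all neighbours in that order, and an interval above 1 was found for SOX4, SOX13, SOX12, SOX18 and SOX8. Those of SOX13, SOX12 and SOX8 still included 1.24, the median ratio at starts without a peak. Not all genes with an interval above 1 had peaks, since SOX12 and SOX8 were not called. The input followed much the same order, with 26.8 tags at SOX4 and 23.8 at SOX13, against 2 at SOX11.

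The input level of the loci differed as well. Within 100 kb of the genes the input stood at 1.80 times the median of autosomal windows of 200 kb at SOX18, 1.31 at SOX13, 1.3 at SOX12, 1.03 at SOX4 and 1.02 at SOX2. It was 0.946 at SOX8, 0.696 at SOX10, 0.607 at SOX11 and 0.419 at SOX7. The 3 loci with the most peaks were those with the highest input, and the 2 with none had the lowest. The part of the input level in the number of peaks was not tested. Outside the called peaks the ratio of ChIP to input tags was 0.876 at SOX11 to 1.28 at SOX12, against 0.935 over the genome.

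The strings were next counted over the 30 peaks. CCAAT was found in 4 of 30 peaks, against 26.4% of all peaks, a SOX heptamer in 5 of 30 against 20.5%, an AP-1 string in 3 of 30 against 15.1%, and the ETS core in 4 of 30 against 15.1%. With 30 peaks, a difference of a few peaks is not to be read as a property of the SOX loci. The 5 peaks with a heptamer lay near SOX2, SOX13 and SOX8, and none of them was at a TSS of a SOX gene.

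Of the 10 other SOX genes (SOX1, SOX3, SOX5, SOX6, SOX9, SOX14, SOX15, SOX17, SOX21 and SOX30), 2 had a summit within 1 kb of a TSS and 5 had one within 100 kb. The shares over all protein-coding genes were 44.8% and 83.5%. With 10 genes, these counts are not to be read as a property of the family. At SOX6, which acts beside SOX9 in cartilage, the peak (chr11:16759559-16760624) held 73 tags with a fold enrichment of 8.63, and its summit lay at 63 bp from a TSS. At SOX9 itself the peak (chr17:70116784-70117543) held 34 tags at a fold enrichment of 18.14, its summit was 12 bp from a TSS, and the highest ChIP bin had 17 tags, against 1 in the highest input bin.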

How the data were processed

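One SOX9 ChIP and 1 input library of HT-29 cells were analysed. Per the submitters' processing notes and the study's methods, reads of 50 nt were aligned to hg19 with BWA, and the input was reduced to the ChIP's number of alignments. The authors called peaks with MACS (p cut-off 1e-07). In the deposited peak table, tags are a count of ChIP tags, the score is the -log10 p times 10, the fold enrichment is a ratio to the local input, and the FDR is a percent. The deposited signal counts, in each 32-nt bin, the tags that cover it after extension to 150 bp, so that 1 tag adds to 5 bins and sums were divided by 5; no further scaling was applied. Peak length and summit offset, deposited with them, gave the positions. The second copy of the peak intervals was not used.

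Genes were those of GENCODE release 44 mapped to hg19 (254367 transcripts). The labels give DMEM as the medium and the study's methods another, so the medium is not stated above. Ratios at single genes and peaks, and their exact Clopper-Pearson 95% intervals, were computed from tags rounded to whole numbers. The median ratios over genes used unrounded tags. No test was made with 1 library per condition, and the peak caller's p-values do not cover variation between experiments. Distances are signed in the direction of transcription of the gene named, distances to a summit by the genome. The members, gene lists and strings were chosen with earlier results of these data known. Named peaks were those at a TSS of a member, in a member or with the most tags near it; peaks named for a string or a neighbour were picked after their values were seen. Alternatives were a score of at least 100, the interval midpoint, other TSS distances, other flanks, protein-coding transcripts, interval overlap, distance from the TSSs, the highest bin, a 500-bp window, 1 added tag and other string windows. Some of the peaks beyond the end of SOX13 are counted but not described here. Procedures were tested on simulated data. Scripts ran on Python 3.11.15 with pysam 0.24.0, pandas 2.3.3, NumPy 2.4.6, matplotlib 3.10.9 and SciPy 1.17.1.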

Additional observations from a re-analysis of the deposited data

How the results depend on the processing

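Of 63 recomputed values, 54 stayed within the limits set for calling them unchanged, and the ratio at SOX7 was the only one to cross 1, within its interval. With a peak score of at least 100, the peaks within 100 kb of the 9 SOX genes numbered 16 instead of 30 (over the genome 12177 of 17847 peaks passed), those with CCAAT 1 instead of 4 and those within 1 kb of another gene's TSS 8 instead of 17, and the SOX4 promoter peak was lost while those at SOX13 and SOX18 remained. Within 50 kb and 10 kb of the genes, 17 and 9 peaks were left. Within 500 bp of a TSS, SOX4 and SOX18 remained and SOX13 was lost. With TSSs of protein-coding transcripts, 1 of the other SOX genes, SOX9, had a summit and SOX6 had none. A heptamer was found in 2 peaks within 50 bp of the summit and in 15 over the whole interval, and CCAAT in 12 over the whole interval. The shares over all peaks are not given for these windows, so the counts cannot be read as high or low. Taking the highest ChIP bin over the highest input bin, which can lie at different positions, the ratio was 3 at SOX2, 4.14 at SOX4, 1 at SOX11 and 2 at SOX7. The ratio at SOX10 within 500 bp could not be computed because the input had no tag there. No paired analysis was possible because each condition has 1 library, and no library could be left out for the same reason. Low tag numbers limit the ratios at SOX7, SOX11, SOX10 and SOX8 most, where the intervals are widest.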
